A study of Homo sapiens with 9 samples.

Results

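SAA1, SAA2, LCN2, SLPI, PI3, CP, ELF3, S100A8 and S100A9 are genes of epithelial defence and of the acute-phase response. They were taken by gene name from the OVCAR4 count table, where each matched 1 gene, so the group holds 9 of the 58735 genes listed. OVCAR4 is an established cell line from a human high-grade serous ovarian adenocarcinoma. The libraries were made from OVCAR4 cells that received a pLKO.1 lentiviral shRNA and were selected with puromycin. In the scr control the shRNA was a scrambled sequence and the genotype was WT, whereas shMPZL3 #1 and shMPZL3 #2 carried 1 of 2 hairpins against MPZL3, a cell surface protein of the immunoglobulin superfamily. Each condition had 3 biological replicates, giving 9 libraries, of which 6 were knockdown. All 9 genes passed the filter on low counts. S100A8, with 2, 8 and 2 counts in scr control, passed only through its knockdown counts.

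Epithelial cells that line the airway, gut and genital tract secrete proteins that bind microbial iron carriers, restrain neutrophil proteases or act directly on bacteria. Several of these proteins are also made in the liver during the acute-phase response, a change in protein synthesis driven by cytokines such as interleukin 6 and interleukin 1 through STAT3, C/EBP and NF-kB factors. SLPI, LCN2 and related secreted proteins are well known products of ovarian carcinoma cells.

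SAA1 and SAA2 encode the serum amyloid A proteins of the acute-phase response and are neighbours on chromosome 11. The principal annotated transcripts of the pair have coding sequences of 369 bases that differ at 11 bases, an identity of 97%. The 60-base stretch from coding base 229 to 288, read from GENCODE release 29, holds 8 of these. It is shown because it carries most of the coding letters that differ between the genes. Differences outside the coding sequence were not counted. Capitals mark the bases that differ.
SAA1: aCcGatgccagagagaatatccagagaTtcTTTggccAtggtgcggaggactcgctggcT
SAA2: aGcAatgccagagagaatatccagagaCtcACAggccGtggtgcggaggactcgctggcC
Of the stretches of 50 bases in the SAA1 transcript, 54.2% were also found letter for letter in the SAA2 transcript, against 21.7% of the stretches of 150 bases. The read length is not given in the sources used here, so the division of counts between SAA1 and SAA2 is uncertain, and the summed counts are given beside the separate values.

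The RefSeq promoter table, which spans 250 bases before to 50 bases after each start on GRCh38.p14, held entries for 4 of the 9 genes: LCN2, S100A8, S100A9 and ELF3. The letters GGGANTNTC, a form of the NF-kB motif searched on both strands, were present in 3 of these 4 (LCN2, S100A8 and S100A9) and in 3.83% of all 27305 promoters. The share of all promoters used 1 window per gene. Each of the 4 genes counted if any of its listed windows held the letters, so the counts are not alike. The matches are shown with 10 bases on each side because these are among the genes with higher counts after knockdown, and capitals mark the motif letters.
LCN2: gcagcactccGGGAATGTCcctcactctc
S100A8: cctggtaagtGGGACTGTCtgggttggcc
S100A9: ggccagggctGGGAATTTCacaaaaaagc
The LCN2 stretch lies on the plus strand at chr9:128149267-128149295, with the motif at positions -176 to -168 from the start. The S100A9 stretch is on the plus strand at chr1:153357666-153357694, with the motif at positions -178 to -170. The S100A8 stretch is on the minus strand at chr1:153391016-153391044. S100A8 has 3 listed starts, and the same motif lies at positions -58 to -50 from one of them and 39 to 47 from another. The window of the remaining start, chr1:153391139-153391438, does not hold it. A match is a description of the letters and not of factor binding. The C/EBP letters TTNCNNAA were in the same 3 promoters and in 37.2% of all promoters, and 1 of the S100A9 matches overlaps its NF-kB letters. The AP-1 letters TGANTCA were in the LCN2 promoter and in 7.76% of all. The STAT letters TTCNNNGAA were in no listed window of the 4 genes and in 7.88% of all. The ETS letters GGAAG were in the same 3 promoters as the NF-kB letters and in 71.9% of all.

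Total counts ranged from 15040102 to 27835841 per library. The normalized counts of MPZL3 ran from 536 to 611 in scr control. They were 119 to 143 in the shMPZL3 #1 libraries and 271 to 380 in those of shMPZL3 #2, so the targeted gene was lower in all 6 knockdown libraries, as labelled. Normalized counts are counts divided by the effective library size and scaled to the mean library. The share of counts from mitochondrial genes was 7.155% to 7.761% in scr control, 7.75% to 8.649% with shMPZL3 #1 and 7.395% to 7.795% with shMPZL3 #2. Of 11 epithelial and ovarian serous markers, 10 were expressed above the filter, with a summed level of 5817 to 6174 CPM, which is counts scaled to library size, in scr control and 5893 to 7456 CPM after knockdown. Among these markers FOLR1 was called lower after knockdown (log2 fold change -0.73, adjusted p = 0.000977, edgeR), where 1083 of 16928 genes tested were, and WT1 had at most 13 counts. With shMPZL3 #1 alone, 3 of the 10 were called higher and 2 lower, where 2838 and 2585 of all genes tested were. With shMPZL3 #2 alone, 0 were called higher and 1 lower, where 1585 and 982 of all genes tested were.

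Knockdown of MPZL3 was followed by higher counts of 8 of the 9 genes, and the remaining gene, CP, was not called. In the grouped comparison of 6 knockdown against 3 scr control libraries, the 8 genes passed an adjusted p of 0.05 in edgeR's quasi-likelihood test, with Benjamini-Hochberg adjustment over 16928 genes, where 9.36% of all genes tested were called higher. The median log2 fold change of the 9 genes was 1.59, against 0.02 over all genes tested. The 9 genes and the lists below were chosen with earlier results of these data known. Their shares and medians beside those of all genes are thus a description and not a test of an independent set. For 7 of the 9 every knockdown library lay above every scr control library, which held for 11.8% of all genes tested. The largest differences were those of S100A8 and SAA1, and the smallest called one was that of SLPI. S100A8 is among the 8 called genes and the 7 without overlap. Neither result is independent of the filter for S100A8, since it was tested only because of its knockdown counts. Replicate 1 of the scr control was the lowest control library for 9 of the 9 genes and for 38.6% of all genes tested. Without that library 4 of the 9 genes were called higher, namely SAA1, SAA2, LCN2 and S100A9, and the number of all genes called higher was 453 in place of 1584.

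**Figure D1:**
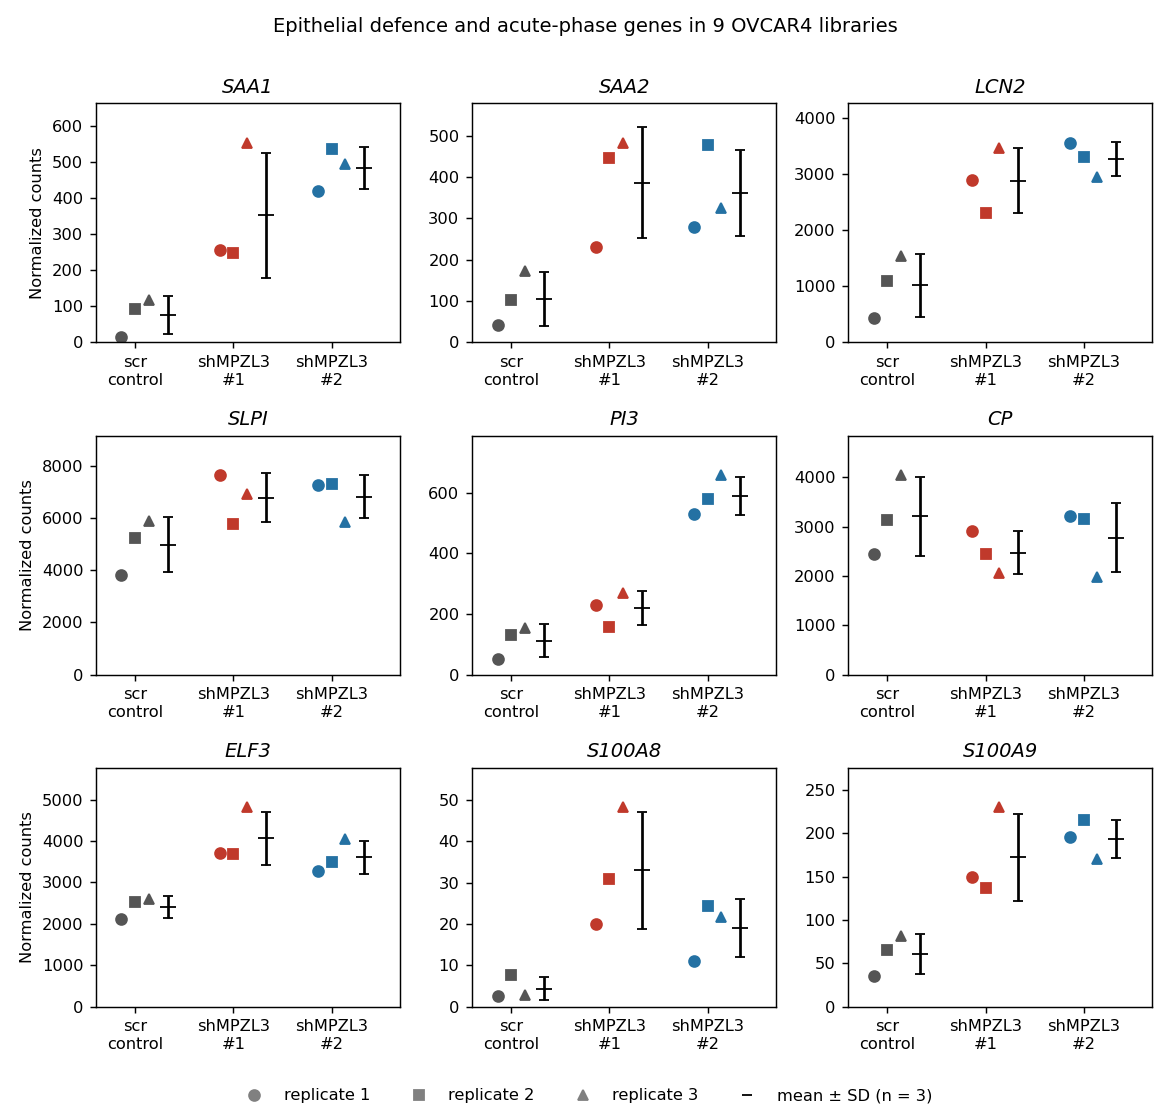
Normalized counts of each gene (y axes, linear and starting at 0) in the scr control, shMPZL3 #1 and shMPZL3 #2 libraries (x axes), with 1 symbol per replicate and the mean ± SD of 3 libraries in black. All 6 knockdown libraries lie above the 3 scr control libraries for 7 genes, the groups overlap for SLPI and CP, and PI3 is higher with shMPZL3 #2 than with shMPZL3 #1.

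SAA1 (ENSG00000173432, chromosome 11, 18266174 to 18269977, plus strand) had 16, 94.3 and 118 normalized counts in scr control replicates 1 to 3. It had 258, 248 and 553 with shMPZL3 #1 and 420, 536 and 495 with shMPZL3 #2. Every knockdown library was above every control library, and the lowest control library was far below the other two. SAA1 rose 5.45-fold in the grouped comparison, a log2 fold change of 2.45 (SE 0.44, adjusted p = 0.00357). The log2 fold change was 2.20 for shMPZL3 #1 (SE 0.40, adjusted p = 0.000549) and 2.65 for shMPZL3 #2 (SE 0.40, adjusted p = 0.000229). Without scr control replicate 1 the grouped log2 fold change was 1.98 (adjusted p = 0.0097).

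SAA2 (ENSG00000134339, chromosome 11, 18239223 to 18248643, minus strand) had 41.2, 102 and 173 normalized counts in scr control. The shMPZL3 #1 libraries had 232, 447 and 482, and the shMPZL3 #2 libraries 279, 478 and 326. The control and knockdown libraries did not overlap. SAA2 rose 3.55-fold (log2 fold change 1.83, SE 0.36, adjusted p = 0.00582), and it was called for shMPZL3 #1 (1.88, adjusted p = 0.000694) and for shMPZL3 #2 (1.78, adjusted p = 0.00236). With the counts of SAA1 and SAA2 summed, the log2 fold change was 2.12 grouped (adjusted p = 0.00298), 2.03 with shMPZL3 #1 and 2.22 with shMPZL3 #2. The ratio of SAA1 to SAA2 counts was 0.387 to 0.926 in scr control, 0.556 to 1.15 with shMPZL3 #1 and 1.12 to 1.52 with shMPZL3 #2. These ratios overlap between scr control and shMPZL3 #1, and those of shMPZL3 #2 lie above the control ratios. The read-through gene SAA2-SAA4 overlaps SAA2 and had 17 counts over the 9 libraries beside 2659 for SAA2, and how reads of shared exons were counted is not given in the sources used here.

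LCN2 (ENSG00000148346, chromosome 9, 128149071 to 128153455, plus strand) encodes lipocalin 2, which binds the siderophores with which bacteria take up iron. Its normalized counts were 428, 1098 and 1536 in scr control, 2887, 2307 and 3459 with shMPZL3 #1, and 3551, 3308 and 2946 with shMPZL3 #2. The highest control library was below the lowest knockdown library. LCN2 rose 3.01-fold (log2 fold change 1.59, SE 0.29, adjusted p = 0.00368), with 1.5 for shMPZL3 #1 (adjusted p = 0.000653) and 1.68 for shMPZL3 #2 (adjusted p = 0.000555). CP (ENSG00000047457, chromosome 3, 149162410 to 149222055, minus strand) encodes ceruloplasmin, the copper-carrying ferroxidase of plasma and an acute-phase protein. CP had 2452, 3130 and 4039 normalized counts in scr control, 2919, 2436 and 2053 with shMPZL3 #1, and 3210, 3152 and 1974 with shMPZL3 #2. The groups overlapped, and the lowest value of all 9 libraries was in a shMPZL3 #2 library. The grouped log2 fold change of CP was -0.29 (SE 0.18, adjusted p = 0.293, two-sided exact permutation p = 0.286), and neither shRNA alone passed the test, with -0.38 for shMPZL3 #1 (adjusted p = 0.133) and -0.21 for shMPZL3 #2 (adjusted p = 0.49). Without scr control replicate 1, CP was called lower with shMPZL3 #1 (-0.54, adjusted p = 0.0452). CP overlaps HPS3 on the opposite strand, with 10467 counts for HPS3 and 24816 for CP over the 9 libraries, and the libraries carried no strand information.

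SLPI (ENSG00000124107, chromosome 20, 45252239 to 45254564, minus strand) and PI3 (ENSG00000124102, chromosome 20, 45174876 to 45176544, plus strand) encode the whey acidic protein inhibitors SLPI and elafin, which block neutrophil elastase at epithelial surfaces. SLPI had 3811, 5229 and 5884 normalized counts in scr control, 7624, 5761 and 6925 with shMPZL3 #1, and 7265, 7291 and 5857 with shMPZL3 #2. The highest control library was above the lowest library of each shRNA. The log2 fold change of SLPI was 0.45 (1.36-fold, SE 0.14, adjusted p = 0.046), while the exact permutation test of the 6 against the 3 libraries gave p = 0.0714. SLPI was called with shMPZL3 #1 (0.44, adjusted p = 0.0265) and with shMPZL3 #2 (0.45, adjusted p = 0.044). The grouped call was lost without any 1 of 6 libraries. The adjusted p was then 0.263 and 0.116 without scr control replicates 1 and 2, 0.0766 and 0.0645 without shMPZL3 #1 replicates 1 and 3, and 0.0681 and 0.0649 without shMPZL3 #2 replicates 1 and 2. With scr control replicate 1 or 2 left out, the adjusted p was 0.157 or 0.0525 for shMPZL3 #1 and 0.231 or 0.0889 for shMPZL3 #2. It was 0.0828 or 0.0693 for shMPZL3 #1 when its own replicate 1 or 3 was left out, and 0.15 or 0.0934 for shMPZL3 #2 when its own replicate 1 or 2 was.

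PI3 had 50.5, 132 and 155 normalized counts in scr control, 230, 158 and 270 with shMPZL3 #1, and 531, 581 and 658 with shMPZL3 #2. The 3 groups formed separate ranges, with the lowest shMPZL3 #1 library just above the highest control library. PI3 rose 3.58-fold grouped (log2 fold change 1.84, SE 0.47, adjusted p = 0.0198). The grouped call did not hold when control replicate 1 was left out (1.49, adjusted p = 0.111) or when control replicate 2 was (1.98, adjusted p = 0.0649). The log2 fold change was 0.95 for shMPZL3 #1 (SE 0.27, adjusted p = 0.0136) and 2.38 for shMPZL3 #2 (SE 0.27, adjusted p = 1.9e-05). With shMPZL3 #1, DESeq2 gave an adjusted p of 0.056, and edgeR gave 0.0711 when replicate 3 of that shRNA was left out. The ratio of PI3 to SLPI counts was 0.0133 to 0.0264 in scr control, 0.0274 to 0.0391 with shMPZL3 #1 and 0.0732 to 0.112 with shMPZL3 #2, so the ratios of the 3 groups did not overlap.

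ELF3 (ENSG00000163435, chromosome 1, 202007945 to 202017188, plus strand) encodes an epithelium-specific ETS transcription factor that is induced by inflammatory cytokines. It had 2108, 2521 and 2605 normalized counts in scr control, 3713, 3681 and 4811 with shMPZL3 #1, and 3275, 3498 and 4050 with shMPZL3 #2. The control libraries were close to each other and all below the knockdown libraries. ELF3 rose 1.59-fold (log2 fold change 0.67, SE 0.13, adjusted p = 0.00468), with 0.75 for shMPZL3 #1 (adjusted p = 0.000248) and 0.58 for shMPZL3 #2 (adjusted p = 0.00419). Without scr control replicate 1 the grouped value was 0.58 with an adjusted p of 0.0525. The antisense gene ELF3-AS1 had 2255 counts beside 31072 for ELF3, and reads of the pair cannot be told apart where they overlap.

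S100A8 (ENSG00000143546, chromosome 1, 153390032 to 153391188, minus strand) and S100A9 (ENSG00000163220, chromosome 1, 153357854 to 153361027, plus strand) encode the subunits of calprotectin, which withholds zinc and manganese from microbes and is abundant in neutrophils. S100A8 was near the limit of detection in control cells, with 2, 8 and 2 raw counts in scr control, 22, 31 and 51 with shMPZL3 #1, and 11, 24 and 29 with shMPZL3 #2. The knockdown libraries all lay above the control libraries, while the libraries of the shRNAs overlapped each other. Over all libraries there were 168 counts after knockdown and 12 in control, a ratio of 5.5 after scaling for library size (95% exact interval 3.07 to 10.9, counting error only). The log2 fold change was 2.48 (SE 0.57, adjusted p = 0.013), with 2.81 for shMPZL3 #1 (adjusted p = 0.00139) and 2.03 for shMPZL3 #2 (adjusted p = 0.0282). Leaving out control replicate 1 or 3 ended the grouped call (2.24, adjusted p = 0.0849, and 2.25, adjusted p = 0.0599). Leaving out control replicate 2, which had the most S100A8 counts of the controls, gave larger log2 fold changes that stayed called, 3.21 grouped, 3.55 for shMPZL3 #1 and 2.77 for shMPZL3 #2. The call for shMPZL3 #2 was also lost without control replicate 1 (adjusted p = 0.116) or 3 (0.0979), and when replicate 2 (0.0625) or replicate 3 (0.0897) of shMPZL3 #2 itself was left out.

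S100A9 had 35.9, 66.0 and 81.1 normalized counts in scr control, 150, 137 and 230 with shMPZL3 #1, and 196, 215 and 171 with shMPZL3 #2. Every knockdown library was above every control library. S100A9 rose 2.99-fold (log2 fold change 1.58, SE 0.26, adjusted p = 0.00194) and was called for shMPZL3 #1 (1.49, adjusted p = 0.000416) and shMPZL3 #2 (1.66, adjusted p = 0.000343). The ratio of S100A9 to S100A8 counts was 8.75 to 29.5 in scr control, 4.45 to 7.45 with shMPZL3 #1 and 7.86 to 17.6 with shMPZL3 #2. The ratios of shMPZL3 #1 lay below those of both other groups, and the control ratios rest on the few S100A8 counts given above. For each of the 7 genes whose knockdown and control libraries did not overlap, the exact permutation test of 6 against 3 libraries gave p = 0.0238, the smallest it can give.

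For shMPZL3 #1 alone 8 of the 9 genes were called higher, where 16.8% of all genes tested were. The same number was called for shMPZL3 #2, against 9.36% of all genes tested. The median log2 fold change of the 9 genes was 1.49 for shMPZL3 #1 and 1.68 for shMPZL3 #2, against 0.01 and 0.00 over all genes. Both comparisons use the same 3 scr control libraries, so they are not independent of each other. An exact test of 3 against 3 libraries cannot go below p = 0.1.

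**Figure D2:**
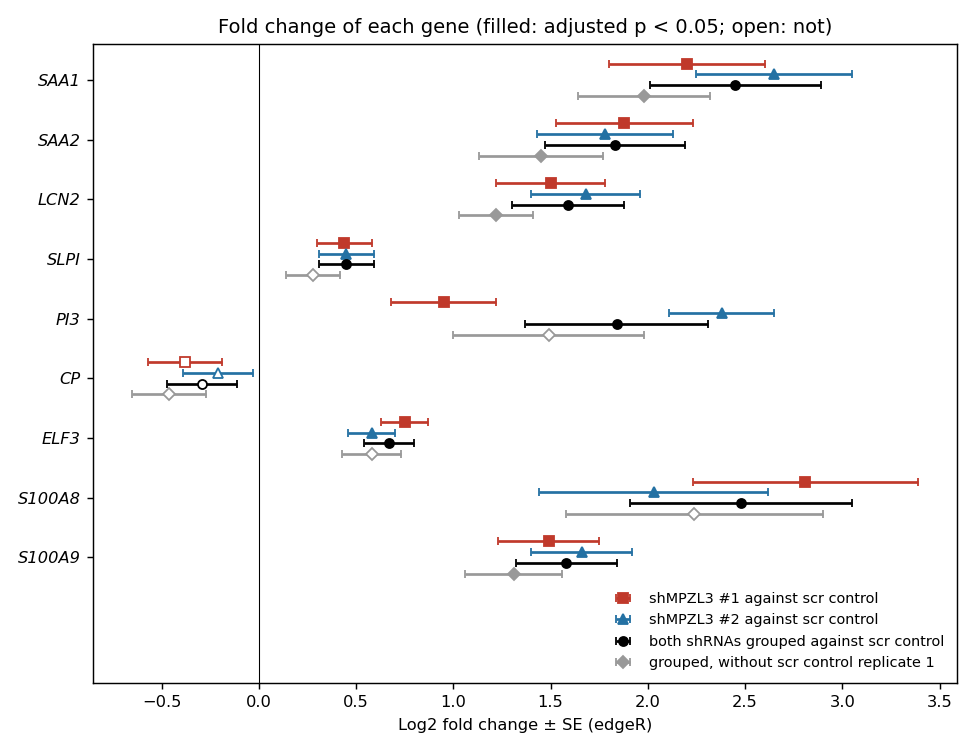
Log2 fold change ± SE (x axis) of each gene (y axis) for shMPZL3 #1, shMPZL3 #2 and both shRNAs grouped against scr control, and for the grouped comparison without scr control replicate 1, where filled symbols passed an adjusted p of 0.05. The values without that library lie below those with it for each gene, and SLPI, PI3, ELF3 and S100A8 then have open symbols.

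The shRNAs were compared directly to ask where they differed. PI3 was called higher with shMPZL3 #2 than with shMPZL3 #1, and it was the only one of the 9 genes called, where 7.56% of all genes tested were called higher and 7.56% lower. PI3 was 2.69-fold higher with shMPZL3 #2 (log2 difference 1.43, SE 0.25, adjusted p = 0.0012), and all 3 shMPZL3 #2 libraries were above all 3 shMPZL3 #1 libraries. The log2 difference was -0.78 for S100A8 (SE 0.47, adjusted p = 0.288) and 0.45 for SAA1 (adjusted p = 0.421). The other 6 genes had log2 differences from -0.17 to 0.18. MPZL3 itself was higher with shMPZL3 #2 than with shMPZL3 #1, by 1.28 on the log2 scale, and whether its level bears on PI3 was not tested.

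Levels were compared between genes as RPKM, which is CPM per kilobase, with the length of the main reference transcript. In scr control SLPI was the highest, at 406 ± 86.6 RPKM (SD, n = 3), followed by LCN2 at 58.6 ± 32, CP at 33.4 ± 8.29 and ELF3 at 23.5 ± 2.6. PI3, SAA2, SAA1 and S100A9 followed with means from 9.51 down to 5.15 RPKM. Neighbours among these 4 overlapped over the libraries, and LCN2 overlapped CP. S100A8 was the lowest at 0.402 ± 0.26 RPKM. After knockdown SLPI remained first with 555 RPKM and LCN2 second with 177 RPKM. The next 6 genes, ELF3, PI3, SAA1, CP, SAA2 and S100A9, ran from 37.4 to 15.5 RPKM and each overlapped its neighbour. The place of PI3 differed between the shRNAs, since it had 18.5 RPKM with shMPZL3 #1, below the 39.7 of ELF3, and 49.8 RPKM with shMPZL3 #2, above the 35.2 of ELF3. S100A8 remained last with 2.43 RPKM. The order depends on the length used. With the listed length, the union of all exons of a gene, the scr control level of SAA2 was 2.31 RPKM in place of 7.47, that of SAA1 was 4.66, below the 5.15 of S100A9, and after knockdown ELF3 had 26 RPKM, below the 34.2 of PI3.

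**Figure D3:**
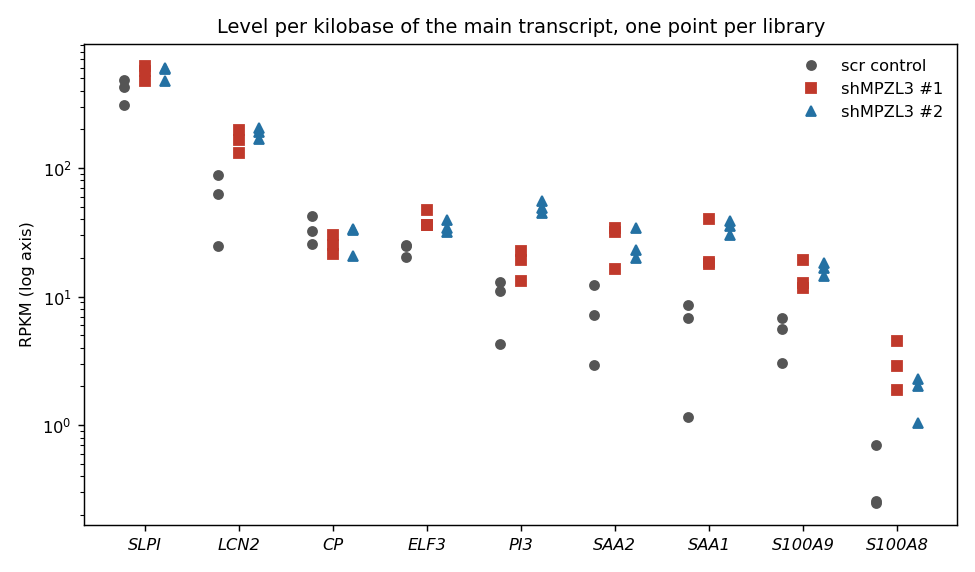
RPKM by the length of the main transcript (y axis, log scale) for each gene (x axis, ordered by the scr control mean), with 1 point per library. SLPI is the highest in every group, with scr control and knockdown means of 406 and 555 RPKM, and S100A8 the lowest, with 0.402 and 2.43 RPKM.

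Within a group, libraries were ranked alike for many of the 9 genes. Replicate 3 was the highest scr control library for 8 of the 9 genes, all but S100A8, against 33% of all genes tested. In shMPZL3 #1, replicate 3 was the highest for 7 of the 9 genes, against 33.9% of all genes, and SLPI and CP were highest in replicate 1. In shMPZL3 #2, replicate 2 was the highest for 5 of the 9 genes, against 39.7% of all genes. The share of mitochondrial counts of scr control replicate 1 was 7.761%, the highest of the 3 control libraries, and its part in these differences was not tested.

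Other acute-phase proteins were mostly not expressed in OVCAR4 cells. Of a list of 21, 6 passed the filter and 3 of these were called higher and 0 lower in the grouped comparison, with a median log2 fold change of 1.08. Over all genes tested 9.36% were called higher there. SAA4, the constitutive serum amyloid A gene, had 0, 4 and 2 counts in scr control and 4 to 24 after knockdown (log2 fold change 2.72, adjusted p = 0.0261). It passed the filter only through its knockdown counts, so its call is not independent of the filter. C3, the central complement component, had 3200 to 10590 counts in scr control and 25263 to 36496 after knockdown (1.74, adjusted p = 0.00114). CFB, complement factor B, rose by 1.12 (adjusted p = 0.0291). CRP, HP, ORM1, FGA, FGB and TTR, proteins that the liver secretes, had 0 counts in all libraries, which allows at most 3 counts per library.

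Of 15 regulators of the acute-phase and defence response, including cytokine receptors, all passed the filter. Among them 4 were called higher and 0 lower, with a median of 0.24, beside 9.36% called higher among all genes tested. CEBPD, a C/EBP factor of acute-phase gene promoters, rose by 1.01 (adjusted p = 0.0129). OSMR, the oncostatin M receptor subunit, rose by 0.99 (adjusted p = 0.00889), and ZC3H12A, an RNase that limits cytokine mRNAs, by 0.75 (adjusted p = 0.00746). The log2 fold change was 0.21 for STAT3 (adjusted p = 0.18), -0.06 for SOCS3 (adjusted p = 0.806) and 0.62 for NFKBIZ (adjusted p = 0.0532), which encode the transcription factor activated by interleukin 6, a feedback inhibitor of its pathway and an NF-kB cofactor. With the shRNAs compared directly, 3 of the 15 were called higher with shMPZL3 #2 and 0 lower, beside 7.56% and 7.56% of all genes. CEBPD (0.58, adjusted p = 0.0412) and OSMR (0.66, adjusted p = 0.00441) were among those 3.

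Among 21 genes of mucosal and antimicrobial defence, 7 passed the filter. Of these, 3 were called higher and 0 lower, with a median of 1.30, beside 9.36% called higher among all genes tested. PIGR, which carries IgA across epithelia, rose by 1.71 (adjusted p = 0.0099) and the mucin MUC1 by 1.30 (adjusted p = 0.000473). DEFB4A, which encodes beta-defensin 2, had 1 count in the 3 control libraries together and 103 after knockdown, a ratio of 40.5 (95% exact interval 7.11 to 1615, counting error only), and its reads may be shared with the near-identical copy DEFB4B. Its call is not independent of the filter, which DEFB4A passed only through its knockdown counts. With the shRNAs compared directly, 2 of the 7 were called higher with shMPZL3 #2, as PI3 was, beside 7.56% of all genes. These were DEFB4A (2.05, adjusted p = 0.0299) and the chemokine CCL20 (3.78, SE 0.34), the latter named after its values were seen. Unlike PI3, CCL20 was not called in the grouped comparison (2.00, adjusted p = 0.167). Against scr control it was -0.90 with shMPZL3 #1 (adjusted p = 0.0753) and 2.89 with shMPZL3 #2 (adjusted p = 1.83e-05).

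Of 15 further inhibitors of epithelial proteases, 5 passed the filter. Among these, 4 were called higher and 0 lower, with a median of 0.47, beside 9.36% called higher among all genes tested. WFDC2, the ovarian cancer marker HE4 and a relative of SLPI and PI3, rose by 1.27 (adjusted p = 0.000106). SPINT1, an inhibitor of membrane serine proteases, rose by 0.86 (adjusted p = 0.00061), and SERPINB1, an elastase inhibitor, by 0.47 (adjusted p = 0.0231). Of the neutrophil proteases that SLPI or elafin inhibits, ELANE and CTSG had 0 counts in every library and PRTN3 at most 19, while MMP9, which binds LCN2, had at most 16, and none of the 4 passed the filter.

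The S100 family is clustered in large part on chromosome 1 beside S100A8 and S100A9. Of 17 other members 13 passed the filter, and 2 were called higher and 0 lower, with a median of 0.33, beside 9.36% called higher among all genes tested. These were S100A6 (0.94, adjusted p = 0.00612) and S100A11 (0.33, adjusted p = 0.0412). With the shRNAs compared directly, 2 of the 13 were called higher and 4 lower with shMPZL3 #2, beside 7.56% higher and 7.56% lower among all genes. Of 19 ETS factors other than ELF3, 17 passed the filter, and 2 were called higher and 0 lower, with a median of 0.03, a share near the 9.36% of all genes tested that were called higher. ETV5 rose by 1.13 (adjusted p = 0.0378), though it was not called with shMPZL3 #1 alone (adjusted p = 0.0928), and ETV6 by 0.76 (adjusted p = 0.00234). With shMPZL3 #1, 1 of the 17 was called higher and 4 lower, where 2838 and 2585 of 16928 genes tested were. With shMPZL3 #2, 3 were higher and 0 lower, where 1585 and 982 of all genes were. Between the shRNAs 5 were higher with shMPZL3 #2 and 0 lower, beside 7.56% and 7.56% of all genes.

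Of 13 iron and copper handling genes 12 passed the filter and none was called in the grouped comparison, with a median of 0.27. With shMPZL3 #1, 4 were called higher and 1 lower, where 16.8% of all genes were higher and 2585 of 16928 lower. With shMPZL3 #2, 1 was higher and 0 lower, where 9.36% of all genes were higher. Between the shRNAs 2 of the 12 were higher with shMPZL3 #2 and 4 lower, beside 7.56% and 7.56% of all genes. Of 10 receptors for the secreted proteins 5 passed the filter, with a median of -0.03. TLR2, a receptor of microbial lipoproteins and of serum amyloid A, was the 1 called higher (1.17, adjusted p = 0.00061), and none was called lower. Over all genes tested 9.36% were called higher in the grouped comparison.

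**Figure D4:**
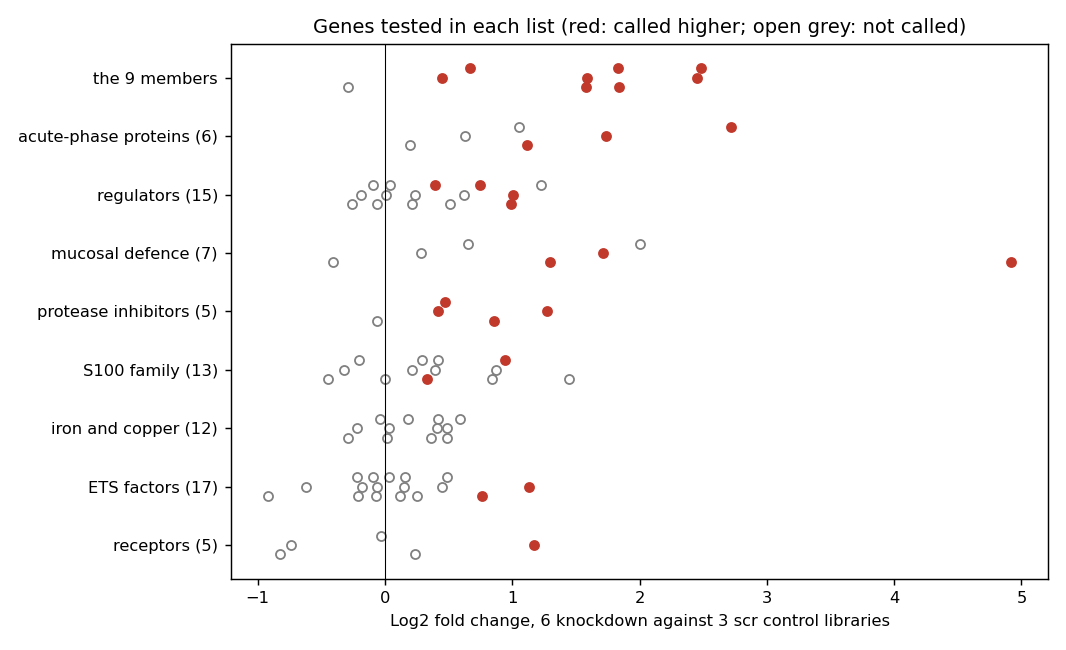
Log2 fold change of 6 knockdown against 3 scr control libraries (x axis) for the 9 genes and for the genes tested in each list (y axis, number tested in parentheses), where red points were called higher and open grey points were not called. Of the 9 genes 8 are red, beside 4 of 5 protease inhibitors, 3 of 6 acute-phase proteins and 3 of 7 mucosal defence genes. Red points are 4 of 15 regulators, 1 of 5 receptors, 2 of 13 S100 genes, 2 of 17 ETS factors and 0 of 12 iron and copper genes. Among all genes tested 9.36% were called higher.

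Because S100A8, S100A9, LCN2 and SLPI are also made by neutrophils and the SAA genes and CP by hepatocytes, markers of other cells were measured. Of 11 neutrophil and myeloid markers 3 passed the filter, and 2 of these, ITGAM (2.01, adjusted p = 0.0109) and CD14 (1.60, adjusted p = 0.0237), were called higher. In scr control ITGAM had 4, 15 and 3 counts and CD14 had 3, 12 and 5. Both passed the filter on their knockdown counts and would not have passed on those of scr control, so their calls are not independent of the filter. The summed level of the 11 markers was 1.04 to 1.61 CPM in scr control and 2.56 to 4.59 CPM after knockdown, and CSF3R, ELANE, FCGR3B and CEACAM8 had 0 counts in all libraries. Of 7 hepatocyte markers 1 passed the filter, APOA1, which was called lower (-1.29, adjusted p = 0.00159). The summed level of the 7 was 4.75 to 5.97 CPM in scr control and 1.97 to 2.81 CPM after knockdown, with TTR at 0. Of 8 fibroblast and mesothelial markers 4 passed the filter, and LUM (1.15, adjusted p = 0.02) and COL1A1 (1.05, adjusted p = 0.0149) were called higher, with DCN at 0 in all libraries. The summed level of those 8 was 141 to 151 CPM in scr control and 125 to 211 CPM after knockdown. Over all genes tested, 9.36% were called higher and 1083 of 16928 lower in the grouped comparison. The part of the markers that moved in these results was not tested. More cells with a transcript and more transcript per cell cannot be told apart in bulk libraries.

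The genes whose pattern over the 9 libraries was most like that of each member were found by Pearson's r of log2 CPM among 11917 to 11919 well expressed protein-coding genes, as a description, since the libraries share their group differences. C3 and CXCL16, a chemokine, were among the 3 closest genes of SAA1 (r = 0.985 and 0.989), LCN2 (r = 0.989 and 0.988) and S100A9 (r = 0.991 and 0.987). The third was ACHE for SAA1 (0.988), FADS3 for LCN2 (0.988) and MGLL for S100A9 (0.987). BIRC3 (0.987), IFI16 (0.983) and SH3TC2 (0.980) were closest to SAA2. NNMT (0.985), CD40 (0.984) and PDZK1IP1 (0.983) were closest to PI3. KIF3C (0.996), VAV1 (0.987) and SEZ6L2 (0.984) were closest to ELF3, and IRAK2 (0.984), RTP4 (0.983) and CPPED1 (0.983) to S100A8. The likeness was lower for SLPI, with ABCC3 (0.956), ACOT1 (0.943) and LCN2 (0.931), and for CP, with C3orf67 (0.945), ARPIN (0.937) and SLC43A3 (0.914). LCN2 was the 1 case in which another of the 9 genes was among the 3 closest.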

How the data were processed

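Poly-A selected, non-directional RNA-seq libraries of OVCAR4 cells were used as the deposited raw counts per gene, which the authors made with HISAT2 2.0.5 and featureCounts 1.5.0-p3 on hg38, according to the submitters' processing notes. Annotation and read length are not given in the sources used here, but all 58735 genes matched GENCODE release 29 in identifier, position and name. Groups followed the labels. Replicates are biological per the study's methods, and no pair within a group agreed within counting noise (chi-square per gene 3.08 to 23.2).

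Differential expression was tested in edgeR 4.0.16 under R 4.3.3, with filterByExpr, TMM scaling (factors 0.983 to 1.03), two-sided quasi-likelihood tests and Benjamini-Hochberg adjustment over 16928 genes, called at an adjusted p under 0.05. The filter keeps genes with enough counts in as many libraries as 1 group holds. A gene that is low in scr control can therefore pass on its knockdown counts alone. Shares called higher and medians of lists with such genes lean upward for that reason. Both shRNAs were grouped in a 2-group fit, as in the study, and each was tested in a 3-group fit. Exact permutation tests of log2 CPM (prior count 2) were two-sided (scipy 1.17.1, Python 3.11.15). Tests were checked on simulated counts. There the grouped test recovered 39 of 79 genes changed 1.5-fold, 50 of 70 changed 2-fold and 47 of 51 changed 4-fold. It made 5 false calls, so a change of the size of SLPI or CP can be missed. In those simulated counts both shRNAs had the same change, so the figures do not cover genes that differ between the shRNAs. Counts of 3 or fewer were regarded as at the floor only in reading the values, and they entered the tests and ratios unchanged. Intervals cover counting error only. Precision is lowest for S100A8.

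The 9 genes and the gene lists were chosen with earlier results of these data known. Named genes are the 9, MPZL3, the 3 called genes of largest change in each list, the 3 genes most like each member (log2 CPM of at least 1), and the list genes that are singled out, namely STAT3, SOCS3, NFKBIZ, CCL20 and those at or near 0, which were chosen after their values were seen. Alternatives were DESeq2 1.42.0, RLE and upper-quartile scaling, other filters, a replicate block, other fits, summed SAA counts and leaving out each library. The gene length column was used for RPKM. The OVCA433 libraries of the study were not analysed here.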

Additional observations from a re-analysis of the deposited data

Results flagged for a closer look

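PI3 differed between the shRNAs by the test of the difference itself. It was higher with shMPZL3 #2 than with shMPZL3 #1 by 1.43 on the log2 scale (SE 0.25, adjusted p = 0.0012, edgeR quasi-likelihood test), with 531 to 658 against 158 to 270 normalized counts. The difference was 1.24 to 1.60 when any 1 library of the pair was left out, and it stayed called in each case.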

How the results depend on the processing

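Of 150 values for the grouped comparison under an alternative, 138 kept their direction and side of the threshold and 12 lost the call, 11 of them when 1 library was left out. For the 9 genes the number called higher was 4 to 8 with 1 library left out, the lowest without scr control replicate 1, and 8 with DESeq2, RLE and upper-quartile scaling. CP, with 0 genes called lower otherwise, was called lower with shMPZL3 #1 with no filter (1 gene, log2 fold change -0.37, adjusted p = 0.00715) and without scr control replicate 1 (1 gene), so that the count over left-out libraries was 0 to 1. With no filter SAA1 was also called higher with shMPZL3 #2 than #1 (2 genes, adjusted p = 0.0497).

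Values that changed sign were near 0. For shMPZL3 #2 against #1, SLPI was -0.02 with upper-quartile scaling, -0.01 with at least 10 counts in every library, -0.00 with a fit of the 2 groups only and -0.10 to 0.10 over left-out libraries, where SAA2 was -0.38 to 0.09. For CP with shMPZL3 #2 against scr control the value was -0.38 to 0.00 over left-out libraries. The cause was not tested. S100A8 has no value with at least 10 counts in every library.

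Over all genes the grouped calls (1584 higher, 1083 lower) were 453 to 815 higher and 172 to 423 lower without 1 scr control library, 653 lower without shMPZL3 #1 replicate 1, and 2479 and 2198 as the mean of both shRNAs in the 3-group fit. For shMPZL3 #1 (2838 higher, 2585 lower) 1689 were lower without shMPZL3 #1 replicate 3. For shMPZL3 #2 (1585 higher, 982 lower) leaving out 1 library gave 910 to 1667 higher and 354 to 1388 lower, and for shMPZL3 #2 against #1 (1279 higher, 1280 lower) 667 to 1521 and 798 to 1432.

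The replicate numbers are shared between groups, and the deviations of same-numbered libraries from their group means had correlations from -0.001 to 0.218. The labels give no shared batch or day, and not every pair was over 0.1, so the numbers were not used to pair samples. Between the shRNAs the 3 same-numbered pairs had 0.097 to 0.218 and the others -0.147 to 0.004, so each library was most like its own number there, a hint from the data and not the design. With a replicate block the grouped log2 fold change of SLPI was 0.45 with an adjusted p of 0.074, which left 7 of the 9 genes called. The block gave 1434 genes higher and 990 lower grouped, 1597 lower with shMPZL3 #2 and 2015 higher for shMPZL3 #2 against #1. Depth limits S100A8 most, with 2 to 8 counts per control library.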
